A study of Mus musculus with 24 samples.

Results

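The genes described here are those of the matrix metalloproteinases (Mmp), the ADAMTS proteinases (Adamts), the Adamts-like proteins (Adamtsl) and the tissue inhibitors of metalloproteinases (Timp). They were chosen by name. Of 51 such genes on the array, 37 were kept because a probe of theirs stood well above background in some group, on all 3 of its arrays, each through its probe of highest mean signal, out of 23864 gene names with a probe of that kind. These were 4 Timp, 13 Mmp, 15 Adamts and 5 Adamtsl genes. The signals come from single-colour Agilent mouse arrays of 24 RNA samples from C57BL/6 mice. Efferent nerve fibres (EN), which form the ventral root, and afferent nerve fibres (AN), which form the dorsal root, were taken at segments L4 to L6. The mice were newborn (P0) or 1, 3 or 5 weeks old (written 1 W, 3 W and 5 W). Each of the 8 groups of nerve fibre and age had 3 arrays, numbered 1 to 3. The labels name no mutation and no treatment for any group. The study's methods give 9 animals per time point, and state that the arachnoid was peeled away first and that the fibres of each group went into 1 tube. They also speak of 3 independent experiments per group. Which animals stand behind an array is not given, so the spread between arrays may be partly technical.

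Mmp enzymes are zinc-dependent proteinases that cut collagens, laminins, proteoglycans and other proteins around cells, and they are made as inactive proenzymes. ADAMTS enzymes are secreted relatives with thrombospondin repeats, among them the hyalectanases that cut aggrecan-type proteoglycans and the procollagen N-proteinases that trim fibrillar collagens, whereas Adamts-like proteins have the repeats but no protease domain. Timp proteins bind the active site of Mmp enzymes, and Timp3 also blocks several ADAMTS enzymes. In peripheral nerve these proteins are known for remodelling of the matrix and basal lamina during growth and repair.

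The promoters of 3 members are shown because their signals carry comparisons described here, Mmp13 and Mmp14 with the falls during development and Mmp24 with the difference between nerve fibres at 1 W. Each is the 250 bases before the start site from RefSeq on GRCm38.p6, written 5′ to 3′ along the gene, which lies on the plus strand in all 3 cases. Capitals mark TGANTCA (the AP-1 motif, which reads the same on both strands apart from its middle base), GGGCGG or its complement CCGCCC (the GC box), and TATAAA or its complement TTTATA.
Mmp13, chr9:7272264-7272513: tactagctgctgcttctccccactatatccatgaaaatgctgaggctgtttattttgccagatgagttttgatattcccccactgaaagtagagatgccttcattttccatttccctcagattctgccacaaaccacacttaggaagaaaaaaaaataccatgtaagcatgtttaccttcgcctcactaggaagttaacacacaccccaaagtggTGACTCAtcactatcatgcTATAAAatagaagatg
Mmp14, chr14:54431348-54431597: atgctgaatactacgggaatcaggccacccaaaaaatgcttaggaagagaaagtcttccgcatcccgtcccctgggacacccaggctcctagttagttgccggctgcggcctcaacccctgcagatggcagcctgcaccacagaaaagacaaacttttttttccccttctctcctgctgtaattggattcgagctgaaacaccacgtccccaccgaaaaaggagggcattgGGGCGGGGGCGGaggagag
Mmp24, chr2:155775092-155775341: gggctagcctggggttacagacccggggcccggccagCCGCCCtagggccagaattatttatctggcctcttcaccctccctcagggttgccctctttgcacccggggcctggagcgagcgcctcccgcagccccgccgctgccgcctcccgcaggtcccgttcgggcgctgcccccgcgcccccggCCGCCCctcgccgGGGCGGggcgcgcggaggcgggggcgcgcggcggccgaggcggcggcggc
The promoter table held 23 of the 37 members. TGANTCA stood in the window of 1 of these 23 genes, Mmp13, and began 35 bases before its start, with TATAAA beginning 16 bases before the start. Of all 32851 promoters in the table, 6.75% held TGANTCA, 12.4% held TATAAA and 32.7% held the GC box in a window of the same length. The GC box was in 17 of the 23 members, Mmp14 and Mmp24 among them. A match describes letters only, and no binding was measured.

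Per array, the local background lay at 23 to 46 and the median signal at 45.4 to 191, no spot was saturated, and the number of arrays limits the precision. All 5 Schwann cell markers examined (Mbp, Prx, Egr2, Pmp22 and Sox10) were above background in every group, with a list mean of 15.05 to 16.96 log2 units per array. Signal of other tissue was present too. The mean of 5 markers of dorsal root ganglion neurons was 12.37 to 13.11 per array in EN and 12.44 to 14.12 in AN at P0, and from 1 W onward it was 7.81 to 9.57 in EN and 7.93 to 15.17 in AN. AN replicate 3 at 3 W stood apart, with a list mean of 15.17 against 10.39 and 10.01 in the other AN arrays of that age. Markers of bone, cartilage, skeletal muscle, meninges and marrow were above background as well. The AN and EN arrays of 1 replicate number always shared a slide, and the 3 W arrays were together on a single slide.

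The first question was how these genes changed between P0 and later ages within each nerve fibre. Timp1, Mmp13, Mmp14, Mmp16, Mmp11, Mmp24, Adamts16 and Adamts17 fell in both nerve fibres between P0 and 5 W, and Timp3, Mmp19, Adamts4, Adamtsl1, Adamtsl2, Adamtsl4 and Adamtsl5 rose in both. In EN, 19 of 37 members were called at 5 W against P0 (9 higher and 10 lower), at an adjusted p below 0.05 in limma and a fold change above 2. The background share of called probes in that comparison was 29.9% (15.4% higher and 14.5% lower). In AN, 21 members were called (9 higher and 12 lower) beside a background of 27.8% (15.2% higher and 12.7% lower). Of the members, 15 were called in both nerve fibres, all in the same direction, 4 in EN alone, 6 in AN alone and 12 in neither, and EN and AN of 1 age and number shared a slide. The share of all probes called in both nerve fibres was not computed, so these counts are not read as a trait of the members. The median log2 change of the members was -0.12 in EN and -0.50 in AN, against 0.04 and 0.03 for all tested probes.

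At 1 W against P0, 10 members were called in EN (5 higher, 5 lower) beside a background of 11.9% (6.25% higher, 5.67% lower), and 7 in AN (4 higher, 3 lower) beside 8.58% (4.96% higher, 3.62% lower). At 3 W the counts were 16 in EN (8 higher, 8 lower) beside 30.5% (16.1% higher, 14.4% lower), and 21 in AN (8 higher, 13 lower) beside 27.8% (15.0% higher, 12.8% lower). The AN share at 1 W and the EN shares at 1 W and 3 W came to 18.9%, 27.0% and 43.2% of the members. The EN count at 1 W holds Adamts6, which was kept through that group alone, so its call there is no support. Of the 37 members, 31 were above background on all 24 arrays. The other 6 (Mmp13, Mmp24, Adamts6, Adamts8, Adamts16 and Adamtsl3) were above it on 8 to 22 arrays, and a member kept through a few groups had to differ from the rest. Over the 31 alone, 15 were called in EN and 18 in AN at 5 W. No called share over the 26471 probes above background on all 24 arrays is given, so these counts have no like background beside them. Only slide 3 held both P0 and 5 W, with replicate 2 as its only 5 W array of each nerve fibre. Within it all 19 calls in EN and all 21 in AN had the direction of the whole comparison. These arrays also made the calls, so this agreement was largely fixed in advance and is no support. No slide held both P0 and 3 W.

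Among the inhibitors, Timp1, a secreted inhibitor that is induced by growth factors and injury (probe at chrX:20451675-20451733, mm9), fell in both nerve fibres. Its log2 signals in EN were 10.91, 10.99 and 10.97 at P0, 9.76, 10.04 and 9.97 at 1 W, 9.39, 9.65 and 9.44 at 3 W and 9.61, 9.46 and 9.60 at 5 W. In AN they were 11.15, 11.16 and 11.16 at P0, 9.26, 9.70 and 9.76 at 1 W, 8.78, 8.77 and 9.50 at 3 W and 8.89, 8.69 and 8.74 at 5 W. In both nerve fibres every later array lay below every P0 array. The fall at 5 W was 2.64-fold in EN (log2 change -1.40, SE 0.166, adjusted p = 1.17e-06) and 5.21-fold in AN (log2 change -2.38, SE 0.166, adjusted p = 1.17e-09). At 5 W the AN signal was lower than the EN signal by a log2 difference of -0.78 (adjusted p = 0.00682), which does not reach a fold change of 2. The change of the AN-EN difference since P0 was -0.98 (SE 0.235, adjusted p = 0.0483), also under 2-fold.

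Timp3, an inhibitor that stays bound to the matrix (probe at chr10:85811696-85811755, mm9), rose. The EN signals went from 14.34, 14.58 and 14.95 at P0 to 15.46, 16.26 and 16.10 at 5 W, and the AN signals from 14.43, 14.69 and 14.97 to 15.54, 16.27 and 15.87. The groups did not overlap in either nerve fibre, and the rise was 2.49-fold in EN (SE 0.221 log2 units, adjusted p = 6.02e-05) and 2.29-fold in AN (adjusted p = 0.000173). With array quality weights the rise in AN was 0.98 log2 units, which was not called. A second probe of the same RefSeq transcript rose by 1.57 and 1.55 log2 units. Another probe with the name Timp3, designed on a separate Ensembl transcript at chr10:85769407-85769466, fell by 4.55 and 3.70 log2 units, so the statement on Timp3 rests on the RefSeq transcript. Timp2, which also helps the membrane enzyme Mmp14 activate Mmp2, was higher at 5 W by 0.95 log2 units in EN (adjusted p = 5.39e-06) and 0.88 in AN (adjusted p = 1.3e-05), short of 2-fold. Its arrays ran from 15.47 to 15.59 in EN at P0 and from 16.20 to 16.61 at 5 W, without overlap.

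**Figure D1:**
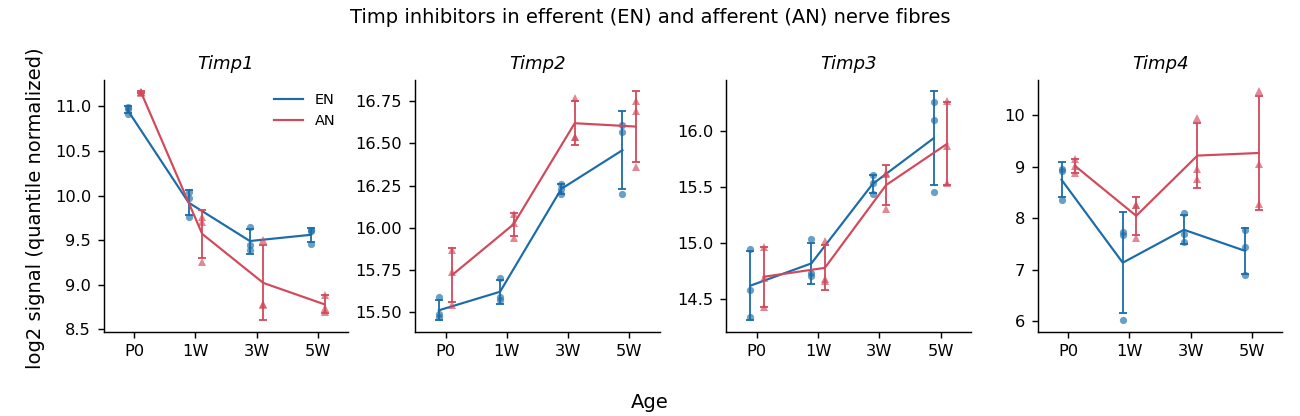
Log2 signal of the 4 Timp genes (y axis, quantile normalized) by age (x axis) in EN (blue circles) and AN (red triangles), with 1 point per array, lines through the group means and bars of 1 SD (n = 3). Timp1 fell after P0 in both nerve fibres, Timp3 rose by 5 W, and Timp4 was higher in AN than in EN at 5 W.

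Timp4 (probe at chr6:115195840-115195899, mm9, minus strand), an inhibitor known from heart and brain, was the inhibitor called between the nerve fibres. Its EN signals were 8.93, 8.96 and 8.36 at P0, 6.02, 7.68 and 7.74 at 1 W, 7.55, 8.10 and 7.70 at 3 W and 6.90, 7.77 and 7.45 at 5 W. The AN signals were 9.16, 9.02 and 8.89 at P0, 8.26, 7.62 and 8.27 at 1 W, 8.76, 8.96 and 9.94 at 3 W and 9.06, 10.47 and 8.28 at 5 W. At 3 W and 5 W all AN arrays were above all EN arrays, and AN replicate 2 at 5 W was the highest of the 24. EN fell 2.61-fold from P0 to 5 W (log2 change -1.38, SE 0.482, adjusted p = 0.0214), while in AN the change was 0.25 (adjusted p = 0.696). With slide as a fixed block, or without EN replicate 1 or 2 at P0 or EN replicate 1 at 5 W, the fall in EN was not called. At 5 W the signal was 3.73-fold higher in AN (log2 difference 1.90, SE 0.482, adjusted p = 0.0216), in 3 of 3 pairs of one number. The difference was 1.30 (adjusted p = 0.135) without AN replicate 2 and 1.66 (adjusted p = 0.0821) without EN replicate 1 at 5 W, and 1.94 (adjusted p = 0.0525) without EN replicate 3, so the call rests on each of these arrays. The other Timp4 probe gave a difference of 1.68. The list mean of the oligodendrocyte markers (5 of 5 tested) was also higher in AN at 5 W. Their mean was 8.42, 8.99 and 7.49 in AN and 6.84, 6.92 and 6.75 in EN at 5 W, the same order as Timp4 among the AN arrays, and 3.60 to 4.07 in AN and 3.99 to 4.61 in EN at P0, when Opalin and Klk6 were above background on no array. Across ages the markers did not follow Timp4, since in EN their list mean rose from 4.29 at P0 to 6.84 at 5 W while Timp4 fell. At 1 W the list mean was 5.48 in EN and 5.53 in AN. The part of oligodendrocytes in the Timp4 difference was not tested.

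Of the collagenases, Mmp13, which cuts fibrillar collagen and is abundant in cartilage and bone, fell in both nerve fibres. Its EN signals were 8.88, 9.28 and 8.69 at P0, 4.19, 5.97 and 6.74 at 1 W, 6.18, 6.58 and 5.72 at 3 W and 4.63, 4.87 and 7.10 at 5 W. The AN signals were 9.53, 11.01 and 8.68 at P0, 6.95, 7.72 and 6.34 at 1 W, 6.16, 6.71 and 5.11 at 3 W and 6.85, 5.68 and 6.40 at 5 W. Every P0 array lay above every later array of its nerve fibre, and 2 of 3 EN arrays at 1 W and at 5 W were above background. The fold fall at 5 W was 10.7 in EN (SE 0.702 log2 units, adjusted p = 0.000452) and 10.8 in AN (adjusted p = 0.000472), but 18.4 without EN replicate 3 at 5 W and 6.95 without AN replicate 2 at P0. In AN at 1 W it was 6.66 (adjusted p = 0.00886), and the adjusted p was 0.0524 without AN replicate 2 at P0. Of the 6 markers of osteoclasts and bone, Acp5, Ctsk and Ibsp had lower group means at every later age than at P0 in both nerve fibres, as Mmp13 did. The other 3 did not, since Spp1 went from 12.86 at P0 to 15.42 at 5 W in EN and from 13.28 to 13.84 in AN, Bglap from 6.50 to 6.93 in EN and Ocstamp from 6.94 to 6.93 in EN. The mean of all 6 per array was 10.11 to 10.31 in EN and 9.90 to 11.53 in AN at P0, and 8.19 to 10.34 in EN and 8.33 to 9.86 in AN later, with AN replicate 2 at P0 and EN replicate 3 at 5 W highest of their groups in both measures. Ibsp, a bone matrix protein, went from above background on all 6 arrays at P0 to 0 of 3 in EN at 3 W. Of the 3 cartilage markers tested, Col2a1 went from 14.00 at P0 to 11.31 at 5 W in EN and from 14.19 to 11.02 in AN, and Col9a1 went from 11.19 to 8.89 in EN and was at 7.72 in AN at 5 W, below its P0 level too, while Chad was at 6.82 and 6.71 in EN and at 6.51 and 7.08 in AN. The part of these cells in the fall of Mmp13 was not tested. The other collagenase, Mmp8 of neutrophils, was not called in any comparison, and its EN arrays at 5 W lay at 7.48, 8.18 and 10.06 beside a mean of 8 neutrophil and marrow markers of 10.31, 11.17 and 12.55.

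The gelatinases, which cut basement membrane and denatured collagen, differed from each other. Mmp2, made by fibroblasts, was called in no comparison, with a log2 change at 5 W of -0.08 in EN and -0.53 in AN. Mmp9, made by osteoclasts and myeloid cells, had AN signals of 9.25, 9.84 and 7.76 at P0, 6.40, 6.97 and 5.29 at 3 W and 6.03, 6.69 and 7.64 at 5 W. This was a fall of 6.63-fold at 3 W (adjusted p = 0.00211) and 4.48-fold at 5 W (SE 0.663 log2 units, adjusted p = 0.0108). The latter was not called without AN replicate 2 at P0 or AN replicate 1 at 5 W, with an adjusted p of up to 0.0614. In EN the arrays at 5 W spread from 5.70 to 9.14 around a P0 range of 7.62 to 8.29, and no change was called. Without AN replicate 3 at P0 the log2 changes in AN were -3.33 at 3 W and -2.76 at 5 W. The other Mmp9 probe, of the same RefSeq transcript, was called lower in EN at 3 W (log2 change -1.75, adjusted p = 0.0171) and in AN at 1 W (-1.99, adjusted p = 0.0202), 3 W (-3.06) and 5 W (-2.82), so for EN at 3 W and AN at 1 W the call depended on the probe. The bone markers were highest in AN replicate 2 and lowest in AN replicate 3 among the AN arrays at P0, as was Mmp9. At 5 W the order was the reverse, with bone marker means of 9.39, 9.03 and 8.74 in AN. At 3 W the bone marker mean was highest in AN replicate 3 (8.93), where Mmp9 was lowest. The part of bone cells in the fall of Mmp9 was not tested.

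Among the membrane-anchored enzymes, Mmp14, a collagenase of the cell surface that activates Mmp2, had the smallest standard error of all members and fell. Its EN signals were 10.52, 10.48 and 10.40 at P0, 10.05, 10.18 and 9.93 at 1 W, 8.25, 8.34 and 8.25 at 3 W and 8.07, 7.95 and 8.05 at 5 W. The AN signals were 10.71, 10.51 and 10.79 at P0, 9.97, 9.87 and 9.84 at 1 W, 8.28, 8.26 and 7.98 at 3 W and 7.82, 7.53 and 8.02 at 5 W. The step lay between 1 W and 3 W, with no overlap between these ages in either nerve fibre. By 5 W the fall was 5.44-fold in EN (SE 0.123 log2 units, adjusted p = 2.3e-11) and 7.35-fold in AN (adjusted p = 3.7e-12). Mmp16, a close relative of Mmp14, fell 4.64-fold in EN (SE 0.144, adjusted p = 5.24e-10) and 4.23-fold in AN (adjusted p = 1.1e-09), from 8.71 to 9.15 per array at P0 to 6.59 to 6.94 at 5 W over both nerve fibres. Mmp11, a stromelysin of stromal cells, fell 2.57-fold in EN (SE 0.149, adjusted p = 4.32e-07) and 2.78-fold in AN (adjusted p = 1.64e-07). Markers of mitotic cells (4 of 4 tested, Mki67, Top2a, Cdk1 and Ccnb1) fell over the same ages, from list means of 12.05 to 13.05 per array at P0 to 7.85 to 8.48 at 5 W, and their part was not tested. Mmp15 was called nowhere.

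Mmp24, the membrane enzyme found mainly in neurons (probe at chr2:155643521-155643580, mm9), differed between the nerve fibres at 1 W. At P0 the EN arrays had signals of 6.89, 6.99 and 7.04, and the AN arrays, which overlap with them, 7.39, 8.00 and 6.66. At 1 W they were 2.62, 3.56 and 2.65 in EN, not well above background on any array, and 6.54, 7.09 and 7.18 in AN. The measured means of 2.94 and 6.93 gave a log2 difference of 3.99 (SE 0.699, adjusted p = 0.00413). With each EN array raised to its lowest signal well above background, Mmp24 was 4.16-fold higher in AN at 1 W. That fold is no lower limit, since normexp background correction gave less. The difference held in 3 of 3 pairs, without each array in turn (adjusted p of up to 0.0288) and under the other settings. It was 1.36 log2 units after normexp background correction. With EN raised in the same way, its fall from P0 was 4.28-fold at 1 W and 3.81-fold at 5 W. As measured, the fall in EN was called at both ages (adjusted p = 0.000384 and 0.000268). Over the other settings the log2 change in EN was as small as -1.37 at 1 W and -1.19 at 5 W. At 3 W the AN arrays were at 4.19, 4.07 and 7.80, of which replicate 3 alone was above background, and at 5 W at 4.98, 5.27 and 3.77, of which 2 were. The AN-EN difference at 3 W was 1.33 (adjusted p = 0.314) with AN replicate 3 and 0.11 (adjusted p = 0.952) without it. The fall in AN at 3 W was 3.98-fold as measured (log2 change -1.99, adjusted p = 0.023), and 9.30-fold (-3.22) without AN replicate 3, the only array of that group above background. It was not called after normexp background correction, with slide as a block (adjusted p of up to 0.225) or without AN replicate 1 or 2 at P0 or at 3 W (adjusted p of up to 0.14).

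The markers of dorsal root ganglion neurons (5 of 5 tested, Avil, Calca, Tac1, Scn10a and Prph) moved with Mmp24. Their mean at 1 W was 7.81, 8.48 and 9.57 in EN and 13.58, 13.96 and 13.75 in AN, an AN-EN difference of 5.14 (exact permutation test, two-sided p = 0.1, the smallest that 3 against 3 arrays allow). At 3 W the AN array with 15.17 was the one with an Mmp24 signal of 7.80, and at 5 W the list means of 11.90, 10.70 and 7.93 in AN stood beside 4.98, 5.27 and 3.77. In EN at P0, where Mmp24 was above background on all 3 arrays, the list mean was 12.37 to 13.11. The part of these cells in the Mmp24 difference was not tested.

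**Figure D2:**
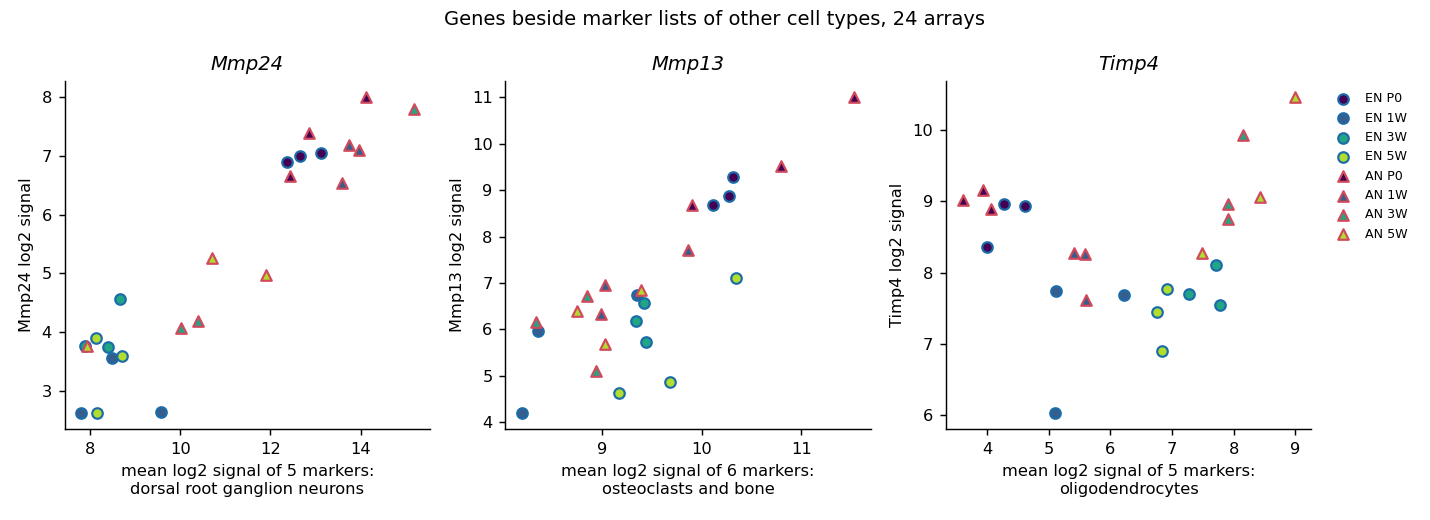
Log2 signal of Mmp24, Mmp13 and Timp4 (y axes) against the mean log2 signal of marker lists of other cell types (x axes) on the 24 arrays, circles for EN and triangles for AN, with a lighter fill for older mice. All arrays with Mmp24 above 6 log2 units had a neuron marker mean of at least 12.37, AN replicate 2 at P0 was highest in both Mmp13 and bone markers, and AN replicate 2 at 5 W was highest in both Timp4 and oligodendrocyte markers.

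Mmp17, an enzyme held to the membrane by a lipid anchor (probe at chr5:130113835-130113894, mm9), rose with age and rose more in AN. The EN signals were 8.80, 8.95 and 9.27 at P0, 8.82, 8.74 and 8.79 at 1 W, 9.72, 9.73 and 9.94 at 3 W and 9.83, 9.96 and 10.10 at 5 W. The AN signals were 9.06, 9.06 and 8.94 at P0, 8.84, 9.01 and 9.07 at 1 W, a mean of 10.18 (SD 0.17, n = 3) at 3 W and 11.03, 10.85 and 11.21 at 5 W. All AN arrays were above all EN arrays at 1 W, 3 W and 5 W, whereas the nerve fibres overlapped at P0. The rise by 5 W was 4.03-fold in AN (log2 change 2.01, SE 0.133, adjusted p = 6.28e-10) and 0.96 log2 units in EN, just under 2-fold (adjusted p = 7.61e-06). At 5 W the difference was 2.10-fold (log2 1.07, SE 0.133, adjusted p = 7.52e-05). The AN-EN difference had grown since P0 by 1.05 (SE 0.188, adjusted p = 0.00947). Both sit close to the fold limit, since without AN replicate 3 or EN replicate 1 at 5 W the difference was just under 2-fold, and without EN replicate 3 at P0 its growth was 0.92. In AN at 3 W the rise of 2.23-fold was not called with slide as a fixed block.

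Mmp23, a small enzyme with an atypical membrane anchor (probe at chr4:155025377-155025436, mm9, minus strand), ended above its P0 signal in EN and below it in AN. The EN signals were 10.17, 9.98 and 10.01 at P0, 9.39, 9.46 and 9.75 at 1 W, 9.44, 9.09 and 9.17 at 3 W and 10.58, 10.91 and 10.66 at 5 W. The AN signals were 10.28, 10.17 and 10.41 at P0, 9.43, 9.56 and 9.69 at 1 W, 9.09, 9.05 and 8.89 at 3 W and 9.68, 9.30 and 9.63 at 5 W. In both nerve fibres the group mean was lowest at 3 W (9.23 in EN and 9.01 in AN) and higher again at 5 W (10.72 and 9.54). From P0 to 5 W the log2 change was 0.66 in EN (adjusted p = 0.000526) and -0.75 in AN (adjusted p = 0.000184), both under 2-fold. At 5 W the signal was 2.26-fold lower in AN (log2 difference -1.18, SE 0.139, adjusted p = 4.16e-05), in 3 of 3 pairs. The change of the difference since P0 was -1.41 (SE 0.196, adjusted p = 0.00172), and it was called without each array in turn. Mmp19, a secreted enzyme of vessels and macrophages, rose 5.17-fold in EN (SE 0.297, adjusted p = 2.28e-06) and 2.34-fold in AN (adjusted p = 0.00203) by 5 W, and the latter was not called with slide as a fixed block or without AN replicate 3 at 5 W. The 6 macrophage markers rose too, from 10.31 to 10.68 per array at P0 to 11.38 to 12.33 at 5 W, and their part was not tested. Mmp28, an enzyme of epithelia and nerve, was 2.04-fold higher in EN at 5 W (adjusted p = 0.000166), a call that was lost with slide as a block and without EN replicate 2 or 3 at P0 or EN replicate 3 at 5 W.

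**Figure D3:**
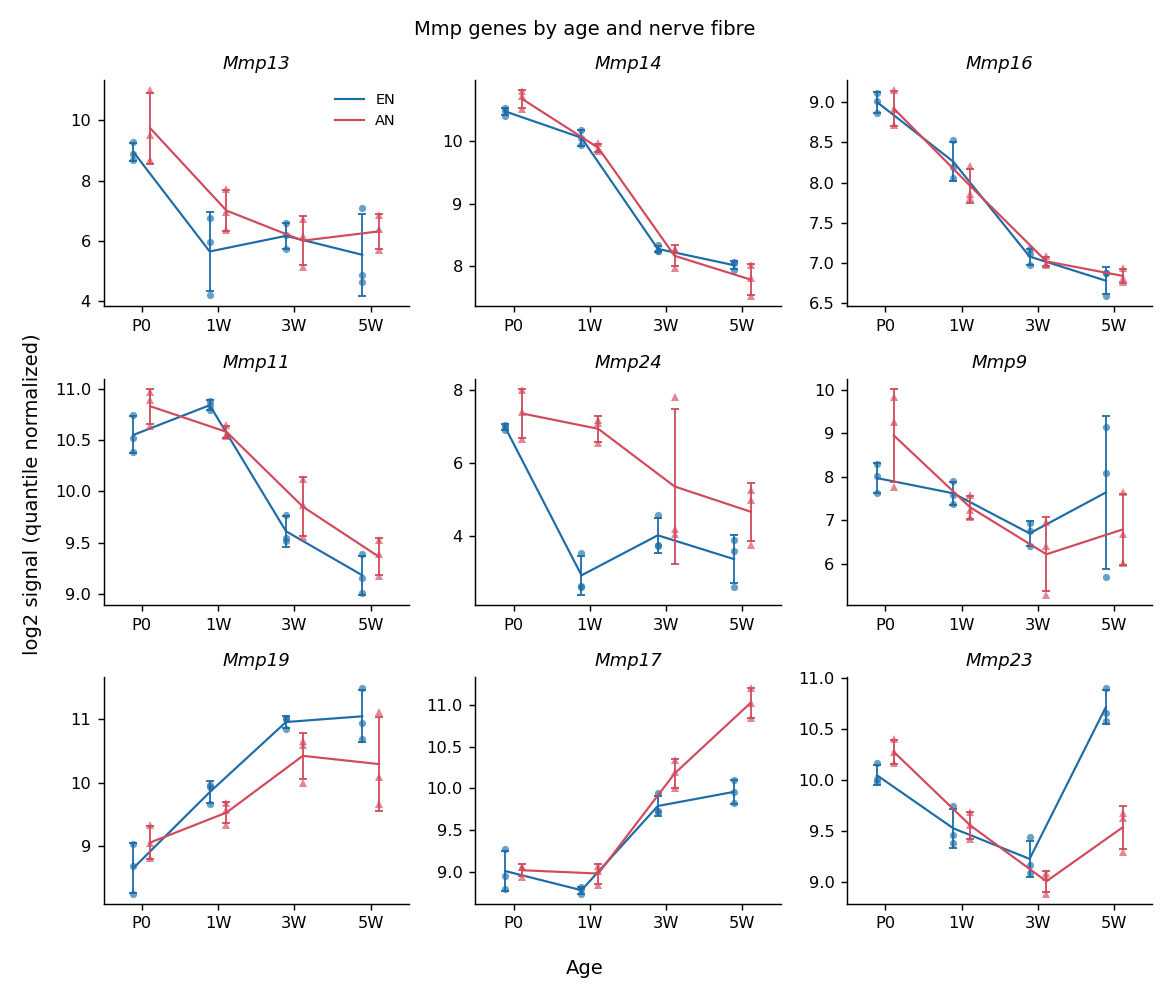
Log2 signal of 9 Mmp genes (y axis, quantile normalized, each panel with its own range) by age (x axis) in EN (blue circles) and AN (red triangles), with 1 point per array, lines through the group means and bars of 1 SD (n = 3). Mmp14 and Mmp16 stepped down between P0 and 3 W in both nerve fibres, Mmp24 was lower in EN at 1 W, and Mmp17 and Mmp23 separated at 5 W.

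Of the 7 hyalectanases, 1 was called higher and 1 lower in EN at 5 W, and 2 higher and 1 lower in AN, beside shares over all probes of 15.4% higher and 14.5% lower in EN and 15.2% and 12.7% in AN. Adamts4, an aggrecanase of cartilage and glia, rose early. Its EN signals were 9.81, 9.96 and 9.23 at P0, 11.72, 12.04 and 11.76 at 1 W and 12.67, 12.27 and 11.83 at 5 W. In AN they were 9.50, 9.63 and 9.48, then 11.73, 11.45 and 11.24, and at 5 W a mean of 11.50 (SD 0.45, n = 3). The arrays of 1 W already lay above all of P0, at 4.51-fold in EN (adjusted p = 4.89e-06) and 3.83-fold in AN (adjusted p = 1.52e-05), and at 5 W the rise was 6.02-fold and 3.90-fold (SE 0.242, adjusted p = 5.76e-08 and 1.88e-06). The member's probe targets an Ensembl transcript, and the probe of the RefSeq transcript rose by 2.34 and 1.83 log2 units. Adamts1, a hyalectanase of vessels and ovary, fell 3.01-fold in AN (SE 0.155, adjusted p = 9.64e-08), and in EN by 0.96 log2 units, just under 2-fold. Adamts5, the main aggrecanase of mouse cartilage, was called higher in AN at 3 W and 5 W and in EN at 3 W, by 2.29-fold to 3.10-fold. In AN at 5 W the rise was 0.98 log2 units without AN replicate 2 and 0.80 with array quality weights, and neither was called. The other probe of the RefSeq transcript of Adamts5 rose by 2.05 log2 units in EN and 2.20 in AN. Another probe with this name lies on the opposite strand and is not counted here. Adamts9 was called lower in EN at 5 W (5.40-fold, adjusted p = 0.00592), with arrays of 10.86, 9.48 and 6.34. The fall was 2.23-fold without EN replicate 3 at 5 W and 10.7-fold without EN replicate 1, and with only the arrays compared it was not called (adjusted p = 0.107). The other 3 probes of Adamts9 gave changes of -1.91, -0.63 and 0.21 in EN. In AN at 5 W the member's probe was not called (-1.47, adjusted p = 0.0831). Other Adamts9 probes were called lower there, 1 by -2.53 and 1 by -1.02. The latter was also called lower in AN than in EN at 3 W (-1.13, adjusted p = 0.0493), so the calls depended on the probe. Adamts8 was called lower in EN at 3 W (8.07-fold as measured, adjusted p = 0.00588, 1 of 3 arrays above background, and 4.93-fold without EN replicate 2 at 3 W), and its AN arrays of that age were at 4.31, 3.96 and 8.05. Adamts15 and Adamts20 were called nowhere.

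Of the procollagen N-proteinases, Adamts2 was not called, and Adamts14 fell in AN by 3.49-fold at 3 W and 2.47-fold at 5 W (SE 0.227, adjusted p = 9.18e-05). In EN the log2 change of Adamts14 was -0.92 at 3 W and -0.71 at 5 W, under 2-fold. Adamts7, which cuts cartilage oligomeric matrix protein, fell 3.39-fold in AN at 5 W (SE 0.319, adjusted p = 0.000145). In EN the log2 change of Adamts7 at 5 W was -0.93, also under 2-fold. In the main fit neither Adamts14 nor Adamts7 was called between the nerve fibres at any age. Adamts12, a relative of Adamts7, was not called, and its member probe targets a cDNA clone without a gene in the RefSeq table. The probe of the RefSeq transcript of Adamts12 rose by 1.16 log2 units in EN and another probe by 1.47, so the probes disagree.

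Adamts17 and Adamts16, ADAMTS enzymes without a settled substrate, fell in both nerve fibres, and of these Adamts17 is linked to fibrillin matrix and eye development. Adamts17 (probe at chr7:74297448-74297507, mm9) had EN signals of 11.88, 11.75 and 11.75 at P0, 10.40, 10.42 and 10.42 at 1 W, 8.33, 8.28 and 8.24 at 3 W and 7.85, 5.99 and 6.69 at 5 W. Its AN signals were 12.15, 12.00 and 12.05, then 11.09, 11.21 and 11.22, then 10.11, 9.92 and 9.52, and 9.69, 8.05 and 9.15. The groups did not overlap from age to age in EN, and all AN arrays lay above all EN arrays at every age. The fall by 5 W was 30.9-fold in EN (SE 0.357, adjusted p = 1.99e-09) and 8.59-fold in AN (adjusted p = 8.23e-07). The AN-EN difference was 1.56 at 3 W (2.96-fold, adjusted p = 0.0137) and 2.12 at 5 W (4.34-fold, adjusted p = 0.00118), in 3 of 3 pairs each, and the former was not called without EN replicate 3 at 3 W (adjusted p = 0.0533). Its change since P0 was 1.85 at 5 W (adjusted p = 0.0935), which was not called. The other probe of the RefSeq transcript fell by 2.69 and 1.98 log2 units and gave a difference of 0.62 at 5 W, so the size of the difference depended on the probe.

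Adamts16 (probe at chr13:70867148-70867207, mm9, minus strand) was not called at 1 W and fell later. In EN the arrays were at 8.65, 8.30 and 8.04 at P0, 8.06, 8.75 and 8.29 at 1 W, 5.09, 5.92 and 5.43 at 3 W and 4.56, 3.31 and 3.33 at 5 W, of which 1 was above background. In AN they were at 8.73, 9.01 and 9.08, then 8.23, 8.50 and 8.34, then 6.06, 6.31 and 6.69, and 5.46, 6.54 and 5.02, of which 2 were. The fall at 5 W was 24.2-fold in EN as measured (SE 0.355, adjusted p = 4.71e-09) and 9.64-fold in AN (adjusted p = 3.98e-07). AN was 3.84-fold above EN at 5 W (log2 1.94, SE 0.355, adjusted p = 0.00226), in 3 of 3 pairs, but 0.49 with normexp background correction, where it was not called. Adamts6, which acts on the matrix of developing heart and skeleton, was near background. At 3 W its EN arrays were at 5.47, 5.14 and 5.23 (1 above background) and its AN arrays at 4.16, 4.35 and 2.96 (none). The log2 difference as measured was -1.45 (adjusted p = 0.0193), and it was -1.02 (adjusted p = 0.106) without AN replicate 3 at 3 W. No lower limit of the fold is given, since most arrays of both groups were not above background. Without EN replicate 1 or 3 at 3 W the call was lost as well (adjusted p = 0.0834 and 0.0612). It was also lost after normexp background correction (log2 difference -0.33, adjusted p = 0.124). Adamts6 was kept only because EN at 1 W was above background on all 3 arrays, so that its difference from other groups there is no support. Calls of Adamts6 that involve EN at 1 W are counted in other paragraphs but carry no weight.

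Of the 5 Adamts-like genes, 4 were called higher at 5 W in each nerve fibre, beside shares over all probes called higher of 15.4% in EN and 15.2% in AN. None was called lower, and Adamtsl3 had log2 changes of 0.09 and -0.31. Adamtsl1, also called punctin, a secreted matrix protein (probe at chr4:86074196-86074255, mm9), had the largest rise of all members. Its EN signals were 7.76, 7.34 and 7.17 at P0, 10.07, 10.09 and 9.28 at 1 W, 11.50, 10.88 and 11.41 at 3 W and 12.52, 12.30 and 12.53 at 5 W. Its AN signals were 7.55, 7.29 and 7.25, then 8.76, 9.00 and 8.15, then 10.02, 9.74 and 9.42, and 11.12, 10.61 and 11.31. Each age lay above the one before in both nerve fibres, and EN lay above AN from 1 W onward. The rise by 5 W was 32.5-fold in EN (SE 0.262, adjusted p = 3.61e-11) and 12.6-fold in AN (adjusted p = 1.72e-09). AN was lower by a log2 difference of -1.18 at 1 W (adjusted p = 0.0139), -1.54 at 3 W (adjusted p = 0.00165) and -1.43 at 5 W (adjusted p = 0.00226), each in 3 of 3 pairs, against -0.06 at P0. The difference at 1 W was not called without AN replicate 3, EN replicate 1 or EN replicate 2 (adjusted p of up to 0.0972). The other 3 probes of Adamtsl1 gave differences of -1.05 to -1.71 at 3 W.

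Adamtsl2, which binds fibrillin and latent growth factor complexes, rose 5.48-fold in EN (SE 0.260, adjusted p = 2.91e-07) and 7.86-fold in AN (adjusted p = 2.39e-08) by 5 W, from 7.84, 8.21 and 7.38 to 10.62, 9.92 and 10.25 in EN and from 6.97, 6.81 and 6.52 to 10.16, 9.19 and 9.88 in AN. At 3 W the EN arrays were at 10.37, 10.36 and 10.36 and those of AN at 9.61, 9.56 and 8.91, a 2.0-fold lower signal in AN (SE 0.260 log2 units, adjusted p = 0.0278). It was -0.78 (adjusted p = 0.139) without AN replicate 3, and leaving out any EN array of that age gave an adjusted p of up to 0.0864. With normexp background correction or array quality weights it was under 2-fold. Adamtsl5 rose 5.69-fold in EN (SE 0.191, adjusted p = 3.97e-09) and 5.17-fold in AN (adjusted p = 8.07e-09). Adamtsl4, another fibrillin partner, rose 3.48-fold in EN (SE 0.143, adjusted p = 7.06e-09) and 3.53-fold in AN (adjusted p = 5.81e-09). For Adamtsl5 the arrays went from 8.81 to 9.58 at P0 to 11.39 to 11.88 at 5 W over both nerve fibres, and for Adamtsl4 from 9.28 to 9.67 to 11.24 to 11.44, so neither gene had an array of 5 W near P0.

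**Figure D4:**
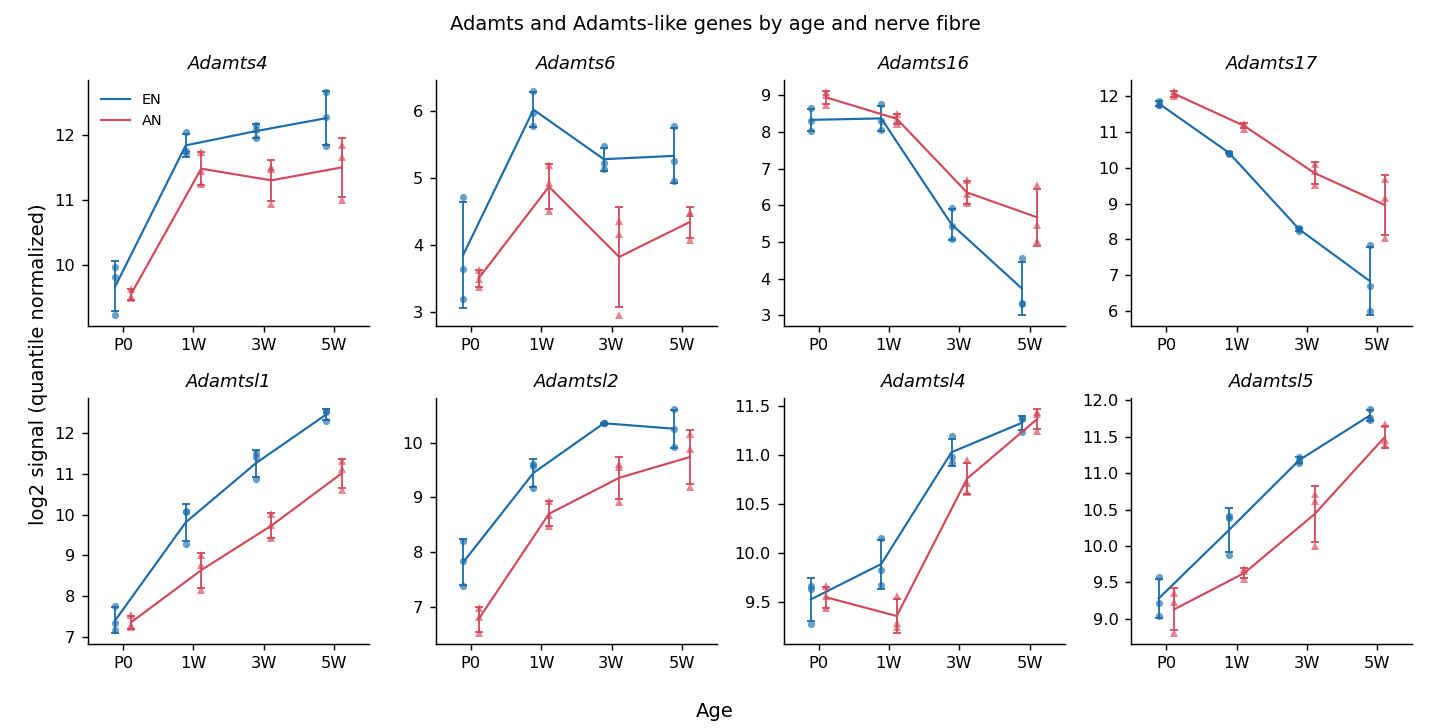
Log2 signal of 8 Adamts and Adamts-like genes (y axis, quantile normalized, each panel with its own range) by age (x axis) in EN (blue circles) and AN (red triangles), with 1 point per array, lines through the group means and bars of 1 SD (n = 3). Adamts17 fell in both nerve fibres with all AN arrays above all EN arrays at every age, Adamts4 had risen by 1 W, and Adamtsl1 rose from age to age, with EN arrays above AN arrays from 1 W onward.

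The second question was which members differed between the nerve fibres at each age. At P0 no member was called, beside a background of 0.327% (0.0714% higher and 0.255% lower in AN). At 1 W, 2 members were called, Mmp24 higher and Adamtsl1 lower in AN, beside 2.79% (2.41% higher, 0.371% lower). At 3 W, 4 were called, Adamts17 higher and Adamts6, Adamtsl1 and Adamtsl2 lower in AN, beside 3.11% (2.23% higher, 0.882% lower). At 5 W, 6 were called, Timp4, Mmp17, Adamts16 and Adamts17 higher and Mmp23 and Adamtsl1 lower in AN, beside 3.31% (2.49% higher, 0.821% lower). At P0, 1 member, Adamtsl2, had an unadjusted p below 0.05 in limma. A fit on only the arrays of the groups compared, with fewer residual degrees of freedom, called Mmp24, Adamts6 and Adamts8 at 1 W, Adamts17 and Adamtsl1 at 3 W and none at 5 W, so the calls at 5 W rest on the spread shared by all 24 arrays. Adamts6 was kept through EN at 1 W, so its call at 1 W is no support. The changes of the AN-EN difference since P0 were called for 0 members at 1 W (background 0.0632%, with 0.0220% higher and 0.0412% lower), 0 at 3 W (background 0.525%, with 0.286% higher and 0.239% lower) and 2 at 5 W, Mmp17 and Mmp23 (background 0.931%, with 0.615% higher and 0.316% lower). With no fold limit, 6, 11 and 11 members had an unadjusted p below 0.05 in limma at these ages. No share of all probes at that looser rule is given for these counts or for the 1 at P0. They are therefore not read as a result about the members.

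With AN and EN of one age and number treated as a pair (a random block, correlation 0.564), more members were called, and more of all probes too. At P0 it was 1 member beside 0.802% of all probes, Adamtsl2, lower in AN with a log2 difference of -1.04 (adjusted p = 0.000734), and its AN arrays of 6.97, 6.81 and 6.52 lay under the EN arrays of 7.84, 8.21 and 7.38. At 1 W it was 3 beside 4.73%, with Adamts6 added, which the background filter had kept through EN at 1 W. At 3 W it was 5 beside 5.75%, with Timp4 added (log2 difference 1.44, adjusted p = 0.0101), and at 5 W the same 6 members beside 5.68%. For the change since P0 it was 2 at 1 W beside 2.11% (Mmp24 at 3.62 and Adamtsl1 at -1.11), 3 at 3 W beside 2.89% (Adamts17, Adamts7 and Adamtsl1) and 6 at 5 W beside 3.84% (Mmp17, Mmp23, Adamts16, Adamts17, Adamtsl1 and Mmp19). Without AN replicate 3 at 3 W and without the pairs, 2 members were called at 3 W, Adamts17 and Adamtsl1, and without EN replicate 3 at 3 W it was 1.

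**Figure D5:**
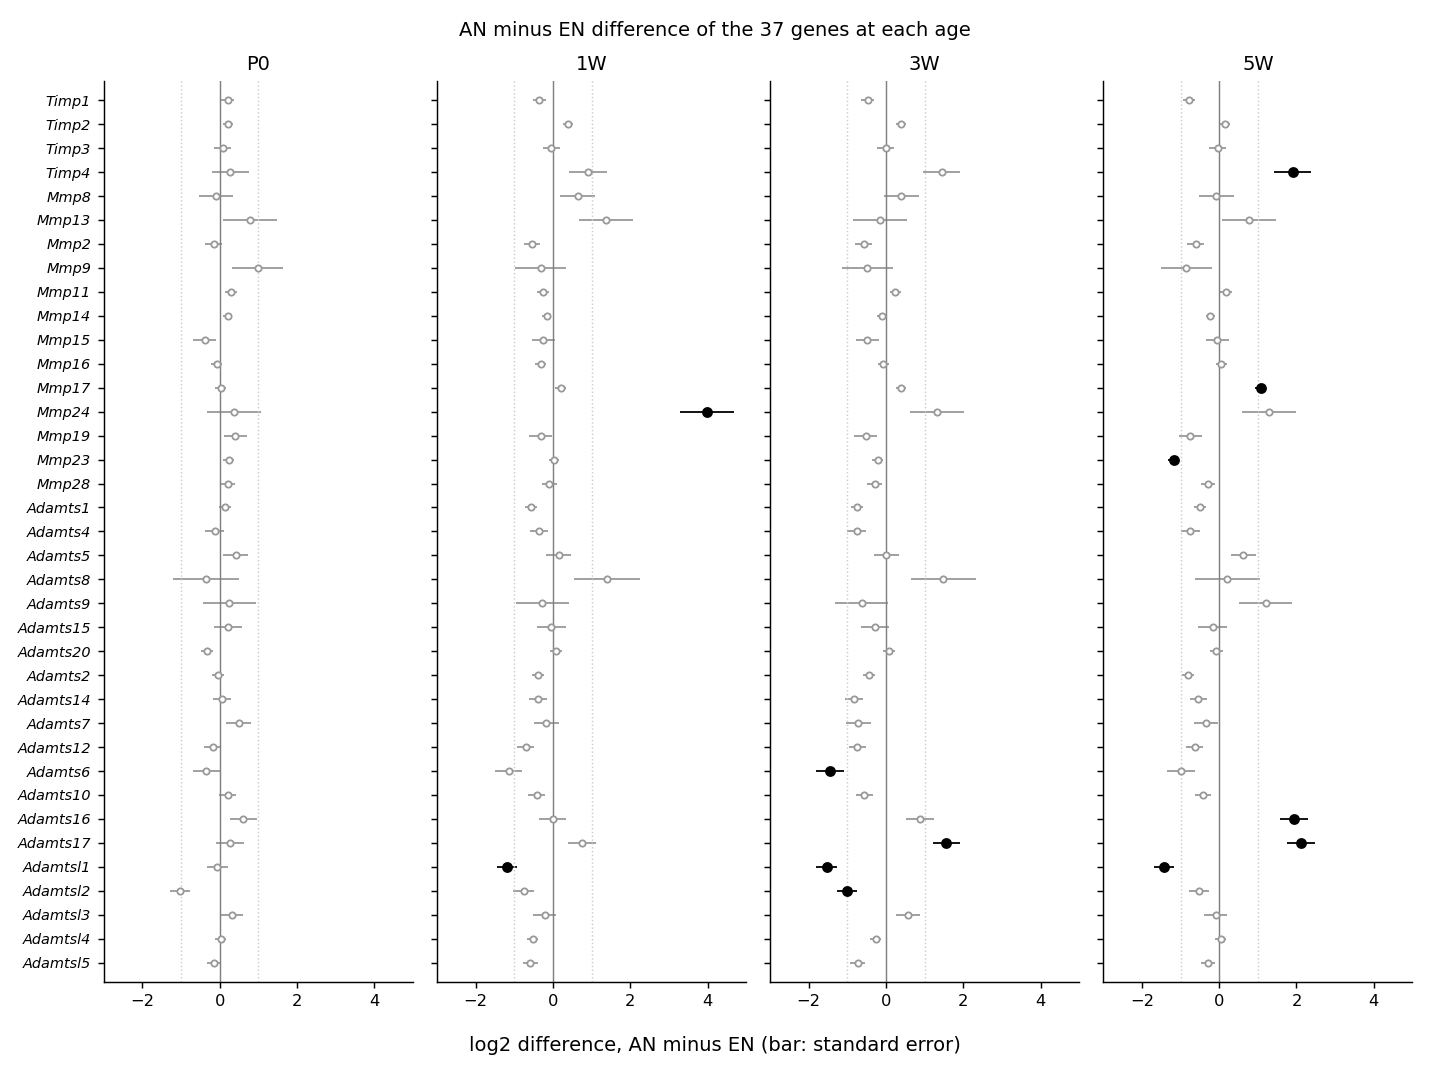
Log2 difference AN minus EN (x axes) of each of the 37 genes (y axis) in 4 panels by age, with bars of 1 standard error from limma, filled black where the adjusted p was below 0.05 and the fold change above 2 (dotted lines at -1 and 1). No gene was called at P0, and 2, 4 and 6 were called at 1 W, 3 W and 5 W, Adamtsl1 at all of these.

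Other genes of the pathway were taken from lists of regulators, ADAM sheddases, and substrates and partners. Of 15 regulators tested, 4 rose and 1 fell in EN and 2 rose and 1 fell in AN by 5 W, beside 29.9% of all probes called in EN and 27.8% in AN. The rise of A2m in EN was under 2-fold without EN replicate 1 at P0 or replicate 2 at 5 W, and that of Plau without EN replicate 2 or 3 at P0 or replicate 1 at 5 W. Pcsk6, a proprotein convertase that can activate proenzymes, rose 16.2-fold in EN and 11.5-fold in AN (SE 0.218, adjusted p = 5.38e-11 and 2.58e-10). Lrp1, the receptor that clears Mmp and Timp complexes, rose 3.09-fold and 2.33-fold, and Fbln1, a matrix cofactor of Adamts1, fell 2.99-fold and 4.54-fold. Between the nerve fibres A2m, a general proteinase trap, was lower in AN at 3 W (2.33-fold, adjusted p = 0.0105) and 5 W (2.02-fold, adjusted p = 0.0265). The former was not called without AN or EN replicate 3 (adjusted p of up to 0.0589), nor the latter without AN replicate 1, EN replicate 2 or EN replicate 3 (adjusted p of up to 0.114), while the other 14 were not called at any age. Of 10 ADAM sheddases, 1 rose and 2 fell in EN and 1 rose and 1 fell in AN, beside the same shares. Adam10 rose 3.82-fold and 3.45-fold and Adam19 fell 2.91-fold and 3.06-fold in EN and AN. Adam23, a catalytically inactive neuronal adhesion protein, was 4.87-fold higher in AN at 3 W (adjusted p = 0.000711) and 3.84-fold at 5 W (adjusted p = 0.00225). Its AN arrays at 3 W were at 9.51, 9.33 and 11.21, and without replicate 3, the array with the neuron marker mean of 15.17, the difference was 3.22-fold (adjusted p = 0.000744). The part of these neurons was not tested.

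Of 14 substrates and partners, 7 fell and 2 rose in EN and 4 fell and 2 rose in AN by 5 W, with a list median of -0.84 and -0.90, beside 14.5% lower and 15.4% higher over all probes in EN and 12.7% and 15.2% in AN. Comp, one of the 7, was not called without EN replicate 2 at P0 (adjusted p = 0.0597). Aggrecan (Acan), cut by the hyalectanases, fell 24.2-fold in EN and 27.1-fold in AN as measured (SE 0.611, adjusted p = 4.46e-06 and 3.09e-06), with 2 of 3 EN and 1 of 3 AN arrays above background at 5 W. At 3 W Acan was called lower in AN (log2 difference -2.19), with 1 AN array above background. That call was lost without AN replicate 1 or 3 or any EN array of that age (adjusted p of up to 0.149). Neurocan (Ncan) fell 45.3-fold in EN and 11-fold in AN and was higher in AN at 1 W, 3 W and 5 W, by 2.60-fold to 5.12-fold. At 1 W the difference was 3.21-fold without EN replicate 1, and at 3 W it was not called without any 1 of the 6 arrays of that age (adjusted p of up to 0.162). Brevican (Bcan) was called higher in AN at 1 W (log2 difference 2.73, and 2.03 without EN replicate 1) and at 5 W (1.83). The latter was not called without AN replicate 1 or 2 or any EN array of that age (adjusted p of up to 0.162). Fibrillin-2 (Fbn2) fell 13.3-fold and 18.3-fold (SE 0.201, adjusted p = 4.94e-11 and 1.13e-11), and collagen III (Col3a1) fell 2.05-fold and 2.63-fold, the former under 2-fold without EN replicate 3 at P0 or at 5 W. Vwf, the clotting protein of endothelium, rose 3.60-fold and 2.29-fold, and Hapln2, a link protein of the node of Ranvier, was counted among those that rose but was kept through its later groups, above background on no array at P0 and at 5.42, 5.57 and 6.01 in EN and 7.05, 7.49 and 6.44 in AN at 5 W. Versican (Vcan) was lower in AN at 3 W (2.29-fold, adjusted p = 0.00473), but under 2-fold without AN replicate 3 (log2 difference -0.94). Of the 14, none was called between the nerve fibres at P0. At 1 W 2 were higher in AN, at 3 W 1 was higher and 2 lower, and at 5 W 2 were higher. The shares of all probes were 2.41% higher at 1 W, 2.23% higher and 0.882% lower at 3 W and 2.49% higher at 5 W. Over the ages at which Acan fell, the cartilage markers Col2a1 and Col9a1 had lower means and Chad did not in both nerve fibres, and their part was not tested.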

How the data were processed

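Total RNA of 24 samples was measured on Agilent single-colour mouse arrays. Scanner intensity values were extracted by the authors with Agilent Feature Extraction 10.7.1.1, and the deposited log2 table had been quantile normalized by the authors before deposit. That table was used as the main values, since the study's methods fit it, and the scanner intensity columns served for background calls and alternatives. Normalization of this kind makes arrays share 1 distribution, so a signal is relative to the other probes of its array.

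Of 56605 gene probes, 36409 were tested, those that in some group stood well above background on each of its 3 arrays. A linear model of 8 group means was fitted with limma 3.58.1 in R 4.3.3 (statmod 1.5.0), with 16 residual degrees of freedom, and p values were adjusted by Benjamini-Hochberg over all tested probes in each of 13 comparisons. A call needs an adjusted p below 0.05 and a fold change above 2. The study's methods name limma with the same limits and do not state an adjustment. The fit was tested on simulated data, where for AN against EN at 5 W, over 36409 probes, 68 of 100 changes of 1.5 log2 units and 94 of 100 of 3.0 were recovered. Genes named are the members by the name rule, 1 probe each, and lists of regulators, substrates and cell type markers, of which 34 of 37 members also matched a RefSeq accession. The members and lists were chosen with earlier results of these data known. Deviations of AN and EN arrays of the same age and number from their group means correlated in all 12 pairs (0.107 to 0.646). The pairing used comes from the labels' numbers and this check. Same-number arrays always shared a slide, so a shared slide and a shared origin cannot be told apart. At 3 W, with all arrays on 1 slide, same-number correlations were 0.107 to 0.214, and AN replicate 1 with EN replicate 2 gave 0.116. Alternatives were other normalizations, background correction, filters, thresholds, blocks for replicate, slide and pair, array quality weights, other probes and each array left out. No deposited column of per-sample values was left unused for want of a label. Markers that are not reported here were left out of the marker lists and of their means.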

Additional observations from a re-analysis of the deposited data

Results flagged for a closer look

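For Mmp17 and Mmp23 the difference between nerve fibres at 5 W differed from that at P0, by limma's test of the difference itself. For Mmp17 the AN-EN log2 difference went from 0.02 to 1.07, a change of 1.05 (SE 0.188, adjusted p = 0.00947). For Mmp23 it went from 0.23 to -1.18, a change of -1.41 (SE 0.196, adjusted p = 0.00172). With only the arrays of the groups compared, Mmp23 was called (adjusted p = 0.0492) and Mmp17 was not (adjusted p = 0.129).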

How the results depend on the processing

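Of 108 called member differences, 74 kept their direction and call under every alternative and every array left out. Over 4081 recomputed values, 3992 kept direction and call, 87 lost the call and 2 reversed. The reversals were Timp3 at 5 W with the mean of all its probes, -0.56 in EN and -0.32 in AN, because 1 of its 3 probes fell. The number of members called at P0 between nerve fibres went from 0 to 1 with an unadjusted p, the replicate block, slide as a random or fixed block, array quality weights and the pairing of AN and EN. At 1 W it went from 2 to 1 with only probes above background on all 24 arrays, and to 4 with any fold change or with array weights. At 3 W it went from 4 to 2 with normexp or only the arrays compared, and to 8 with any fold change, and at 5 W from 6 to 0 with only the arrays compared. Against P0, any fold change gave 17 in EN at 1 W, 28 in EN at 3 W and 14 in AN at 1 W. For the change of the difference at 1 W, 2 were called with an unadjusted p, only the arrays compared or the pairing, and 1 with weights. At 3 W it was 4 with an unadjusted p, 1 with slide as a random or fixed block or only the arrays compared, and 3 with the pairing. At 5 W it was 7 with an unadjusted p, 5 with slide as a random or fixed block, 1 with only the arrays compared and 6 with the pairing. The pairing as a random block was chosen after seeing the data. Apart from the pairing, the shares of all probes called under these settings, or with an array left out, are not given. A looser rule can call more of all probes too, so these counts are not read as a result about the members. Leaving out each array in turn gave 0 to 1, 1 to 3, 1 to 5 and 5 to 6 members between nerve fibres from the youngest to the oldest age, 8 to 13, 16 to 19 and 17 to 22 in EN and 7 to 8, 20 to 23 and 20 to 22 in AN against P0, and 0 to 1, 0 to 0 and 1 to 3 for the change of the difference. The count at 3 W was 1 without EN replicate 3 and 2 without AN replicate 3, at 1 W it was 1 without AN replicate 3, EN replicate 1 or EN replicate 2, and for the change at 5 W it was 1 without EN replicate 3 at P0. Causes of the other changes were not tested. Signals not well above background limit Mmp13, Mmp24, Adamts6, Adamts8, Adamts16 and Adamtsl3.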
